A study of Anethum foeniculum with 6 samples.

Results

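Steady genes of the fennel leaf were studied, that is, assembled genes whose level hardly differed among 6 libraries from plants grown at 400 or 800 ppm CO2. A gene here is a Trinity gene, a group of assembled contigs with a shared identifier, and its level is the sum over its contigs of the deposited TPM, a share of the library corrected for contig length. A gene was called steady when its mean summed TPM over the 6 libraries was at least 20 and its highest library was at most 1.2 times its lowest. There were 133 such genes among the 8067 genes of at least 20 TPM (1.65%) and among all 27955 genes of the deposited tables (0.476%). The genes were chosen by the TPM values of these same libraries, so their levels and their small spread describe the choice and are not tested below.

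The libraries were made from leaf RNA of wild-type fennel (labelled Anethum foeniculum) grown in hydroponics under LED light and sampled at 5 weeks. The 2 groups, 400 ppm and 800 ppm CO2, held 3 libraries each, which the labels call biological replicates. The CO2 was supplied to closed greenhouses, so the effect of the CO2 concentration and that of the greenhouse cannot be told apart. The libraries held between 13118855 and 19841916 estimated reads, and the totals of the groups overlapped. The tables do not pair the identifiers with gene names or sequences, so the functions of the genes are not given, and the tissue could not be checked against leaf marker genes.

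Genes whose transcript level differs little between treatments are used as reference genes, against which the levels of other genes are expressed in quantitative PCR. A level from RNA sequencing is a share of its library, so a gene can keep its share only relative to all other transcripts. When a few abundant transcripts take a larger share, the shares of all other transcripts become smaller even if their amount per cell has not changed. A Trinity gene can hold several contigs, which may be splice forms, alleles, fragments or close copies of a gene, and reads that match more than 1 of them are divided by estimation. In leaf RNA, fewer cells of a type and less RNA per cell cannot be told apart.

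The steady genes were of moderate abundance. Their mean level ranged from 20 to 441 TPM with a median of 55.2 TPM, and the middle 50% lay between 31.6 and 94.0 TPM. The other 7934 genes of at least 20 TPM had a median of 43.2 TPM and reached 24120 TPM. Of the steady genes, 61 lay under 50 TPM, 40 between 50 and 100 TPM and 32 at 100 TPM or more. The share of genes that were steady was 1.27% (29 of 2285) between 20 and 30 TPM, 1.40% (32 of 2283) between 30 and 50 TPM and 2.07% (40 of 1937) between 50 and 100 TPM. It was 2.49% (22 of 885) between 100 and 200 TPM and 2.05% (10 of 488) between 200 and 500 TPM. None of the 189 genes of 500 TPM or more was steady, and 0 of the 200 most abundant genes, which include them, were. At the share of 1.65% over all genes of at least 20 TPM, only a few steady genes would fall in sets of this size.

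**Figure D1:**
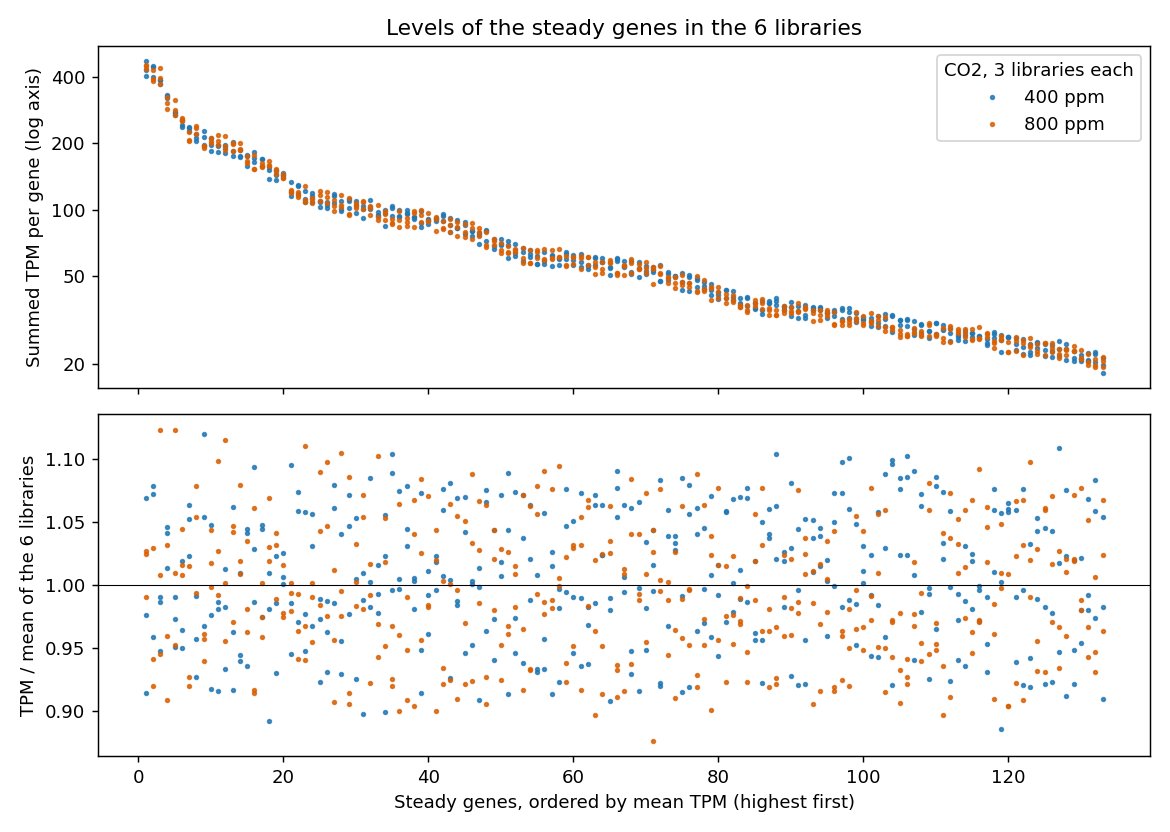
Each steady gene is a column of 6 points, 1 per library and coloured by CO2 concentration, in order of mean level from the highest. The upper panel gives the summed TPM (log axis), with gene means from 20 to 441 TPM, and the lower panel the same values divided by the mean of the gene, where both groups lie on either side of 1.

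The most abundant steady gene, TRINITY_DN61_c2_g1, is a single contig of 2859 bases. Its levels were 471, 430 and 403 TPM at 400 ppm and 452, 453 and 437 TPM at 800 ppm. Its highest and its lowest library were both at 400 ppm, so the 3 libraries at 800 ppm lay inside the range of the other group. TRINITY_DN574_c0_g1, also a single contig, had 447, 449 and 400 TPM at 400 ppm and 429, 392 and 383 TPM at 800 ppm. The groups overlapped, and the mean at 800 ppm was 0.929 times that at 400 ppm. TRINITY_DN10729_c0_g1, with 3 contigs, had 387, 389 and 372 TPM at 400 ppm and 440, 395 and 371 TPM at 800 ppm. Here replicate 1 at 800 ppm stood above the others. TRINITY_DN1496_c0_g1, with 6 contigs, had 331, 330 and 321 TPM at 400 ppm and 288, 327 and 304 TPM at 800 ppm. TRINITY_DN261_c0_g1, with 3 contigs, had 274, 268 and 279 TPM at 400 ppm and 268, 285 and 317 TPM at 800 ppm. In both genes the library farthest from the rest was at 800 ppm, and the groups overlapped.

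The least variable of all, TRINITY_DN2398_c0_g2, was a single contig of 775 bases. Its levels were 146, 143 and 144 TPM at 400 ppm and 145, 139 and 139 TPM at 800 ppm, a ratio of highest to lowest of 1.05. TRINITY_DN73179_c0_g1, a single contig of 783 bases, had 36.4, 36.2 and 34.9 TPM at 400 ppm and 34.1, 35.2 and 36.4 TPM at 800 ppm, a ratio of 1.07. Both genes overlapped between the groups. TRINITY_DN1764_c0_g1 (ratio 1.08) lay between 32.4 and 34.9 TPM and TRINITY_DN6330_c0_g1 (ratio 1.09) between 156 and 170 TPM. TRINITY_DN2216_c0_g1 (ratio 1.1) lay between 238 and 262 TPM. These 3 genes held several contigs each, so the sums with the smallest spread came from single contigs and from sums alike.

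The limit of 1.2 falls in a region where genes follow each other closely. Just inside it, TRINITY_DN1857_c2_g4 ranged from 94.2 to 113 TPM (ratio 1.1996) and TRINITY_DN2475_c1_g7 from 86.3 to 103 TPM (ratio 1.1997). Just outside it, TRINITY_DN3551_c0_g1 ranged from 93.2 to 112 TPM (ratio 1.2001) and TRINITY_DN9347_c0_g2 from 27.3 to 32.8 TPM (ratio 1.2017). At the limit on the level, TRINITY_DN7049_c0_g1 (mean 20 TPM) and TRINITY_DN3540_c0_g1 (20.8 TPM) were inside. TRINITY_DN2812_c0_g1 (19.7 TPM, ratio 1.14) and TRINITY_DN67276_c0_g1 (19.3 TPM, ratio 1.08) were left out by their level alone. Beyond the steady genes, 1617 genes of at least 20 TPM (20%) had a ratio above 1.2 and up to 1.5, 2830 (35.1%) up to 2 and 3487 (43.2%) above 2. The median ratio was 1.17 in the steady genes and 1.89 in the others.

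**Figure D2:**
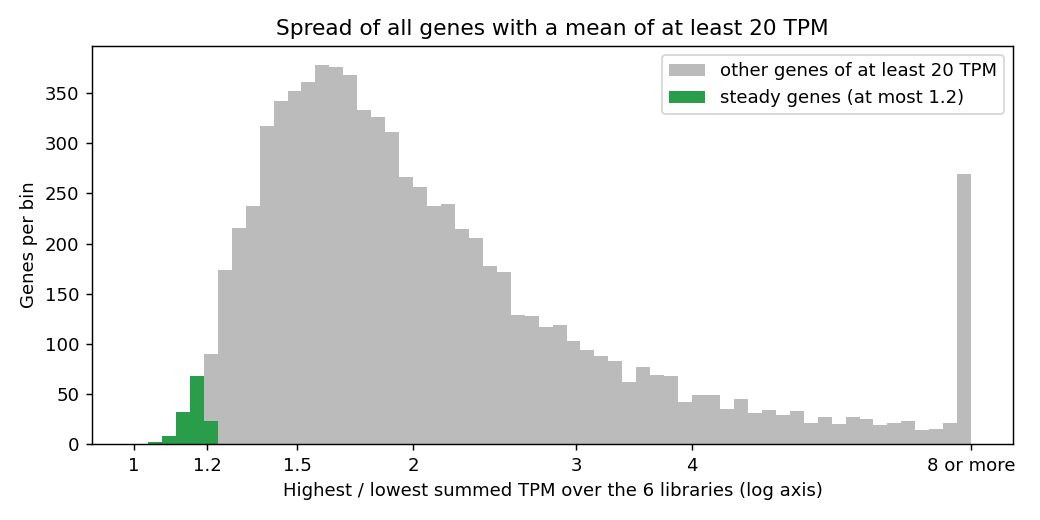
The ratio of the highest to the lowest library is shown for all 8067 genes of at least 20 TPM, with the steady genes marked. The 133 steady genes form the lower end of a single continuous distribution, and 43.2% of the genes had a ratio above 2.

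The steady genes were somewhat longer than the others by their longest contig, with no test made because genes are not replicates. The longest contig of a steady gene measured between 733 and 7035 bases, with a median of 2208 bases and quartiles of 1441 and 3066 bases. In the other genes of at least 20 TPM the median was 1918 bases and the quartiles were 1316 and 2695 bases. Among the steady genes, 9 (6.77%) had no contig of 1000 bases, against 12.0% of the other genes, and 35 (26.3%) had a contig of 3000 bases or more, against 18.6%. The share of genes that were steady did not rise evenly with the longest contig. It was 0.935% (9 of 963) under 1000 bases, 1.63% from 1000 to 1500, 1.44% from 1500 to 2000 and 1.67% from 2000 to 3000. From 3000 to 4000 bases it was 2.67% (25 of 937), and at 4000 bases or more 1.75% (10 of 572). The difference was smaller for the contig that carried most of the gene's TPM, with medians of 1748 and 1649 bases. Across classes of the ratio, the median longest contig was 2208 bases up to 1.2, 1928 bases up to 1.5, 1971.5 bases up to 2 and 1871 bases above 2. The genes between 1.2 and 2 therefore had about the lengths of the genes above 2.

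The longest, TRINITY_DN259_c0_g1 with a contig of 7035 bases, ranged from 50.9 to 60.8 TPM. TRINITY_DN15_c0_g1 (4878 bases) ranged from 114 to 130 TPM, and TRINITY_DN3170_c0_g1 (4842 bases) from 66.4 to 73.7 TPM. In the first and the last of these the most abundant contig was a shorter one, of 1863 and 2201 bases. The shortest steady genes were TRINITY_DN14804_c0_g1 (733 bases, 90.2 to 106 TPM), TRINITY_DN13075_c0_g1 (749 bases, 33.4 to 38.5 TPM) and TRINITY_DN2398_c0_g2 (775 bases), each a single contig. The longest and the shortest genes named here thus overlapped in level. Level was not set against length over all steady genes.

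Read counts moved with the choice as well, and their part in it was not tested. The steady genes held a median of 1070 reads per library and gene and the other genes of at least 20 TPM a median of 843.5, and no steady gene had fewer than 144 reads in a library. Counting alone, taken as the square root of the mean count, would give a coefficient of variation of 3.09% in the median steady gene, and the measured coefficient of variation of its TPM was 5.82% in the median. The median of measured over counting variation was 1.78 in the steady genes and 7.11 in the others. In 14 steady genes the spread was smaller than counting alone would give, as in TRINITY_DN2398_c0_g2 (2.02% against 3.25%) and TRINITY_DN73179_c0_g1 (2.71% against 6.48%). None of the other genes of at least 20 TPM had a spread below that of counting. The rule capped the spread of the steady genes and left the wider spreads to the others. These contrasts with counting therefore follow from the choice, and nothing is read from them.

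Within a group most steady genes varied little, as the rule requires. The median ratio of highest to lowest among the 3 libraries was 1.1 at 400 ppm and 1.1 at 800 ppm, against 1.24 and 1.28 in the other genes. Many other genes were just as even inside a group. Of the 8067 genes, 3264 (40.5%) kept within a ratio of 1.2 among the libraries at 400 ppm, 2697 (33.4%) among those at 800 ppm and 1434 in both groups. Only 133 of those 1434 genes (9.27%) kept within it over all 6 libraries. Of the remaining 1301, 1024 had a lower and 277 a higher mean at 800 ppm, with a median fold of 0.749. Their groups did not overlap in 1198 cases. The steady genes and these 1301 genes all kept within 1.2 inside each group, and most of the 1301 differed from the steady genes by the level between the groups. The spread within the groups was not compared between these sets.

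Between the CO2 concentrations the steady genes lay on both sides. The group mean was higher at 800 ppm in 64 genes and lower in 69, with folds between 0.863 and 1.09. All 3 libraries at 800 ppm lay above all 3 at 400 ppm in 8 genes, where 17.4% of the genes of at least 20 TPM did, and below them in 15 genes, where 48.1% did. Nothing is read from these counts, since the rule used the same levels. TRINITY_DN455_c0_g1 had the lowest fold, with 60.3, 58.3 and 59.6 TPM at 400 ppm and 50.4, 51.8 and 51.6 TPM at 800 ppm. Its groups are far apart for their spread (59.4 ± 1.02 and 51.3 ± 0.756 TPM, SD, n = 3 each), although its ratio is under 1.2. TRINITY_DN1696_c0_g1 had one of the highest folds, with 220, 206 and 212 TPM at 400 ppm and 239, 234 and 220 TPM at 800 ppm. TRINITY_DN714_c0_g1 had 25.8, 24.8 and 24.2 TPM at 400 ppm and 26.5, 27.6 and 27.2 TPM at 800 ppm. In both genes the groups did not overlap, and the mean at 800 ppm was 1.09 times that at 400 ppm. The last 2 genes were chosen after their values were seen, as the 2 steady genes with the lowest p in the edgeR test on gene sums below.

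Steady in TPM meant steady as a share of the library. Together the 133 genes held 10961, 10665 and 10659 TPM at 400 ppm and 10751, 10799 and 10570 TPM at 800 ppm, or 1.08 ± 0.0172% and 1.07 ± 0.0121% of the library (SD, n = 3 each). The rest of the library did not keep its balance. The 50 most abundant genes took 20.1, 23.3 and 19.7% of all TPM at 400 ppm and 24.5, 29.2 and 27.7% at 800 ppm, with no overlap between the groups (21.0 ± 1.93% and 27.1 ± 2.42%, two-sided exact permutation test, p = 0.1, the smallest that 3 against 3 allows). The median gene of at least 20 TPM had 47.3 ± 1.15 TPM at 400 ppm and 38.0 ± 1.29 TPM at 800 ppm (SD, n = 3 each, exact p = 0.1). On the TPM scale the median log2 difference, 800 minus 400 ppm, was -0.34 over all genes of at least 20 TPM and -0.01 over the steady genes. A gene with the same TPM in both groups therefore stood higher, against the median gene, at 800 ppm.

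The steady genes did not have their highest level equally often in each library. A gene had its highest level most often in replicate 1 at 400 ppm (43 genes) and least often in replicate 3 at 800 ppm (10 genes), and the other libraries were highest in 16 to 23 genes. Replicate 3 at 800 ppm was the lowest library in 31 genes and replicate 1 at 400 ppm in 14. These libraries also had the highest and the lowest summed TPM of the steady genes, but the sums differed by no more than a ratio of 1.04.

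The same rule gave other genes once the libraries were scaled to the bulk of the genes. TMM factors scale each library so that most genes do not differ between libraries, and on that scale 1 TPM stood for 0.879 ± 0.0391 units at 400 ppm and 1.12 ± 0.0538 units at 800 ppm (SD, n = 3 each), a ratio of 1.27. On the TMM scale 357 genes of at least 20 TPM kept within a ratio of 1.2, but only 2 of them were among the 133, TRINITY_DN455_c0_g1 (ratio 1.17) and TRINITY_DN3135_c2_g1 (ratio 1.19). That is 1.5% of the steady genes and 0.560% of the genes that passed on the TMM scale. DESeq2 size factors gave 376 genes with 3 of the 133. The 357 genes had a median log2 difference of -0.35 in TPM, a median level of 43.2 TPM and a median longest contig of 2016 bases. TRINITY_DN455_c0_g1, which had the lowest fold in TPM, passed on both, with a log2 difference of 0.14 on TMM, the smallest of the 133.

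On the TMM scale the steady genes stood higher at 800 ppm as a whole. Their log2 differences ran from 0.14 to 0.47 with a median of 0.34, while that of all genes of at least 20 TPM was 0.01. In 126 of them all 3 libraries at 800 ppm lay above all 3 at 400 ppm, and in 0 below, where 31.3% of the genes of at least 20 TPM lay above and 24.1% below (55.4% in all). The deposited FPKM values and counts scaled by library size only (CPM) stood nearer to TPM. On FPKM 183 genes passed, 89 of them among the 133, and the median log2 difference of the steady genes was 0.07. All 3 libraries at 800 ppm lay above all 3 at 400 ppm in 35 steady genes (20.1% of the genes of at least 20 TPM) and below in 4 (43.3%). On CPM 181 genes passed, 86 of them among the 133, and the median was 0.05, with 30 steady genes above (19.8% of the genes of at least 20 TPM) and 4 below (43.7%). The direction of the steady genes between the groups was thus set by the scale, and among TPM, FPKM, CPM, TMM and DESeq2 scaling the median was below 0 on TPM alone.

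**Figure D3:**
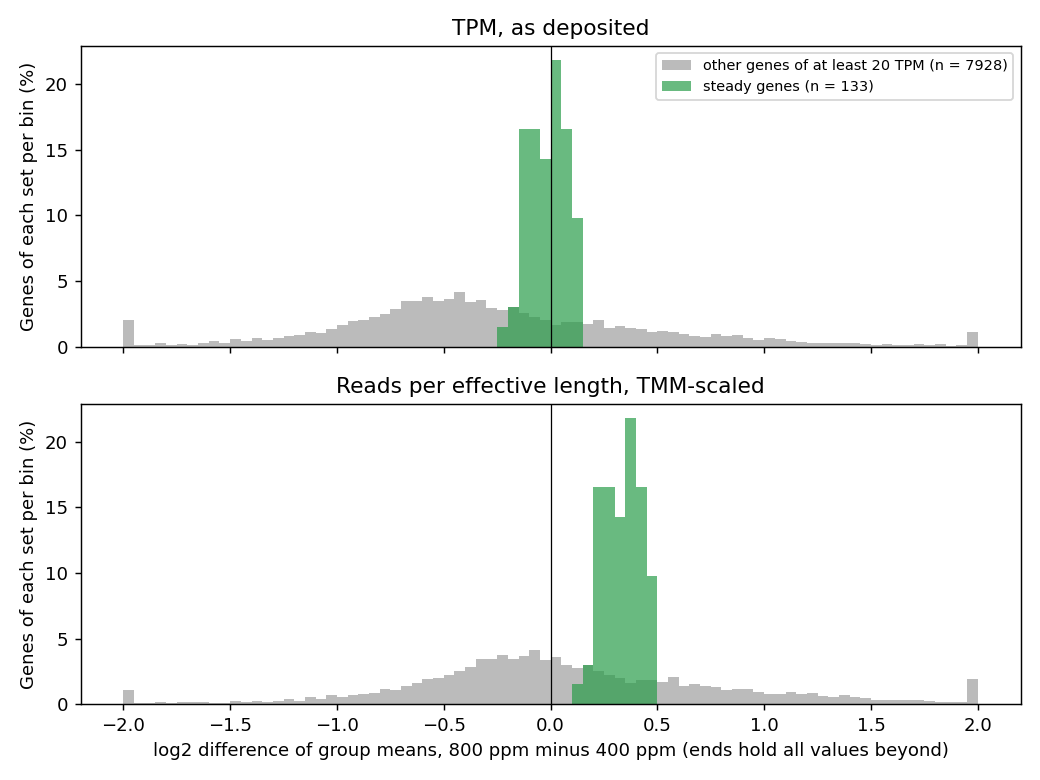
The log2 difference of the group means, 800 minus 400 ppm, is shown on the TPM scale and the TMM scale for the steady genes and for the other genes of at least 20 TPM that were above 0 in every library (values beyond the ends of the axis are counted in the end bars). The steady genes lie around a median of -0.01 on TPM and of 0.34 on TMM, where all genes of at least 20 TPM have medians of -0.34 and 0.01.

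The quasi-likelihood test of edgeR on gene sums, which uses TMM factors, called 24.8% of the 20327 genes tested at an FDR under 0.05, 14.8% higher and 9.96% lower at 800 ppm. All 133 steady genes entered the test, and 46 of them were called, all 46 higher at 800 ppm and 0 lower. TRINITY_DN1696_c0_g1 had a fitted log2 fold change of 0.49 (SE 0.099, edgeR adjusted p = 0.0155) and TRINITY_DN714_c0_g1 one of 0.47 (SE 0.104, edgeR adjusted p = 0.0208). These 2 genes were picked because they had the lowest p of the 133 in this test. The call of TRINITY_DN1696_c0_g1 was lost without replicate 2 or 3 at 400 ppm (edgeR adjusted p = 0.0546 and 0.0575). That of TRINITY_DN714_c0_g1 was lost without replicate 1, 2 or 3 at 400 ppm (edgeR adjusted p = 0.0604, 0.0560 and 0.0734), without replicate 3 at 800 ppm (0.0600) and with the replicate number as a block (0.0533). With library size as the only scaling, edgeR called 0 of the 133, and 0 had an unadjusted p under 0.05, beside 6979 of all 20327 genes called. DESeq2 called 68 of the 133, beside 6317 of the 20327. With any 1 of the 6 libraries left out, edgeR called 0 to 13 of the 133, beside 2628 to 4877 genes in all. The test used the contrast of the rule, so these counts describe the scale and not the genes.

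Contig numbers of the steady genes were like those of the rest. A single contig made up 64 steady genes (48.1%, against 48.9% of the other genes of at least 20 TPM). The other 69 held several, with 2 contigs in 37 genes, 3 in 12, 4 in 10, 5 in 2, 6 in 5, 7 in 2 and 9 in 1. The share of genes that were steady was 1.62% with 1 contig, 1.84% with 2, 1.23% with 3 and 2.50% with 6 or more (8 of 320). In the several-contig genes the most abundant contig carried between 36.3 and 99.0% of the gene's TPM, with a median of 84.2%, near the 82.7% of the other genes. It was the same contig in all 6 libraries in 63 of the 69 genes (91.3%, against 85.1% of the other several-contig genes).

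The contigs inside the steady genes were mostly not steady themselves. Of 213 contigs in the 69 genes, 193 had a mean of at least 1 TPM, and 32 of these (16.6%) kept within a ratio of 1.2. A further 52 had a ratio up to 1.5, 34 up to 2 and 75 (38.9%) above 2, with 5 contigs at 0 in a library. All 32 steady contigs were the most abundant contig of their gene. The 69 most abundant contigs had a median ratio of 1.21 and a median of 46.0 TPM, and 2 of them exceeded a ratio of 2. The 124 lesser contigs had a median ratio of 2.18 and a median of 4.88 TPM, and 73 of them exceeded 2.

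**Figure D4:**
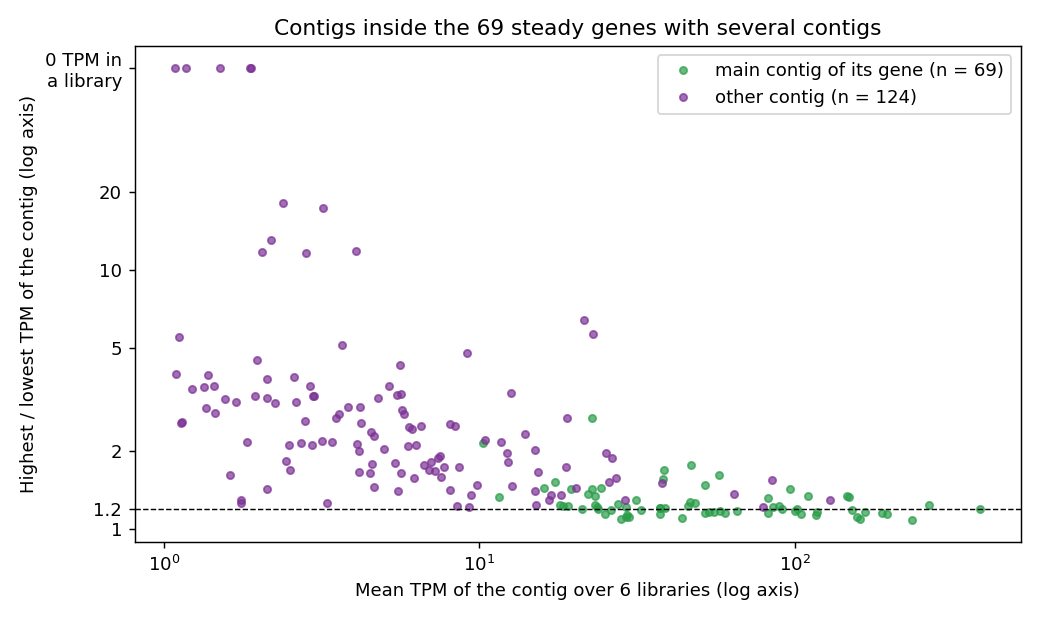
Each contig of at least 1 TPM in the several-contig steady genes is drawn by its mean TPM and its ratio of highest to lowest library (log axes), with the most abundant contig of each gene marked and contigs at 0 in a library set at the upper edge. The most abundant contigs lie near the limit of 1.2 with a median ratio of 1.21, and the lesser contigs lie above it with a median of 2.18.

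Level moved with steadiness among the contigs, so contigs of one range of levels were also set side by side. Among contigs of at least 20 TPM, 32 of 74 in the steady genes (43.2%, median ratio 1.22) were steady, against 26 of 4140 (0.628%, median ratio 2.0) in the several-contig genes that were not steady. A contig that carries nearly all of a steady sum has to be steady with it. One that carries nearly all of a sum that is not steady will mostly not be steady, so the rule shapes both sides of this comparison. Among the 46 contigs of at least 20 TPM that carried less than 90% of their gene, 9 were steady. A like count for the other genes is not given. Of the 65 genes with at least 2 contigs of 1 TPM or more, 0 had every such contig steady, 36 had no steady contig and 44 had at least 1 contig with a ratio above 2.

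The following 3 genes came closest to having even contigs throughout. In TRINITY_DN1394_c0_g1 the contigs had ratios of 1.24 and 1.21, and the larger carried 71.3% of the TPM on average. In TRINITY_DN5402_c0_g1 the ratios were 1.11 and 1.29, and the smaller contig had a mean of only 1.76 TPM. In TRINITY_DN455_c0_g1 the ratios were 1.2 and 1.35. These genes have 2 contigs each, and in none did both keep within 1.2.

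At the other end stood genes with many contigs. TRINITY_DN1023_c0_g1, with 9 contigs, had sums of 228, 237 and 234 TPM at 400 ppm and 205, 206 and 226 TPM at 800 ppm. Its main contig, i8, had 132, 169 and 169 TPM at 400 ppm and 133, 126 and 149 TPM at 800 ppm, and its contig i1 had 21.4, 11.5 and 5.87 TPM at 400 ppm and 20.4, 37.5 and 32.0 TPM at 800 ppm. The levels of i1 spread over a ratio of 6.39 inside a sum with a ratio of 1.16. TRINITY_DN2752_c0_g1, with 7 contigs, kept its sum between 51.8 and 60.3 TPM. Its main contig i7 had 29.1, 27.3 and 26.6 TPM at 400 ppm and 29.9, 29.2 and 32.3 TPM at 800 ppm, while contig i9 had 8.14, 7.15 and 6.97 TPM at 400 ppm and 2.48, 3.81 and 4.46 TPM at 800 ppm. In i9 the groups did not overlap, and in i7 they did not either. TRINITY_DN10270_c0_g1, also with 7 contigs, kept its sum between 25 and 29.9 TPM, although no contig carried more than 43.5% of it in any library. The most abundant contig differed among the libraries in this gene and in 5 others.

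In most several-contig steady genes the contigs moved, on balance, against each other, but not in all. If the contigs of a gene varied independently, the variance of the sum over the libraries would equal the sum of the contigs' variances. In the several-contig steady genes the former was 0.761 times the latter in the median and smaller than it in 52 of 69 genes (75.4%). The upper quartile was 0.991 and the highest value 1.87. In 29 of the 69 genes the most abundant contig carried at least 90% of the TPM. In the other several-contig genes of at least 20 TPM the median was 1.17, and the variance of the sum was the smaller in 18.8%. The choice of genes with even sums favours low values of this measure, so it is a description. In TRINITY_DN1764_c0_g1 the variance of the sum was 0.112 times the sum of variances. Its contig i4 had 25.1, 24.2 and 25.5 TPM at 400 ppm and 24, 21.5 and 20.8 TPM at 800 ppm, and its contig i1 had 7.40, 6.26 and 6.11 TPM at 400 ppm and 6.63, 9.49 and 10.6 TPM at 800 ppm. The sum of the gene stayed within 32.4 and 34.9 TPM. Reads that fit both contigs are divided by estimation, and the part of that division in such exchanges was not tested.

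The rule saw only the sum of a gene and not the share of a contig in it. A choice of genes with even sums still favours contigs that move against each other, and with them shares that differ. The comparisons of shares and usage below are therefore a description. The authors' percent of the gene per contig equalled the share of the summed TPM within 0.0263 percentage points for all 277 contigs of the steady genes. The 3 genes named next had the largest differences of a contig share between the groups. In TRINITY_DN1428_c0_g1 contig i4 (3745 bases) had 61.8, 54.0 and 51.5 TPM at 400 ppm and 34.8, 40.4 and 39.7 TPM at 800 ppm. Its contig i2 (2899 bases) had 20.5, 19.6 and 20 TPM at 400 ppm and 30.7, 29.9 and 37.0 TPM at 800 ppm. The groups did not overlap for either contig, in opposite directions, and the sum stayed between 76.0 and 89.4 TPM. The share of i4 was 65.7 ± 3.30% at 400 ppm and 46.4 ± 1.79% at 800 ppm, and that of i2 was 23.7 ± 0.706% and 39.4 ± 3.12% (SD, n = 3 each).

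In TRINITY_DN1761_c0_g1 contig i5 (983 bases) had 71.3, 65.9 and 67.4 TPM at 400 ppm and 46.4, 49.4 and 44.0 TPM at 800 ppm. Its share was 60.1 ± 2.44% at 400 ppm and 44.6 ± 0.192% at 800 ppm, and the share of contig i7 (2008 bases) was 30.2 ± 2.47% and 39.5 ± 1.02% (SD, n = 3 each). The groups did not overlap in the share of either contig. In TRINITY_DN2612_c0_g1 contig i6 (1515 bases) had 42.2, 48.1 and 44.2 TPM at 400 ppm and 62.5, 57.6 and 56.9 TPM at 800 ppm. Its share was 59.7 ± 2.11% at 400 ppm and 74.6 ± 4.48% at 800 ppm, and contig i4 (1275 bases) held the rest.

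**Figure D5:**
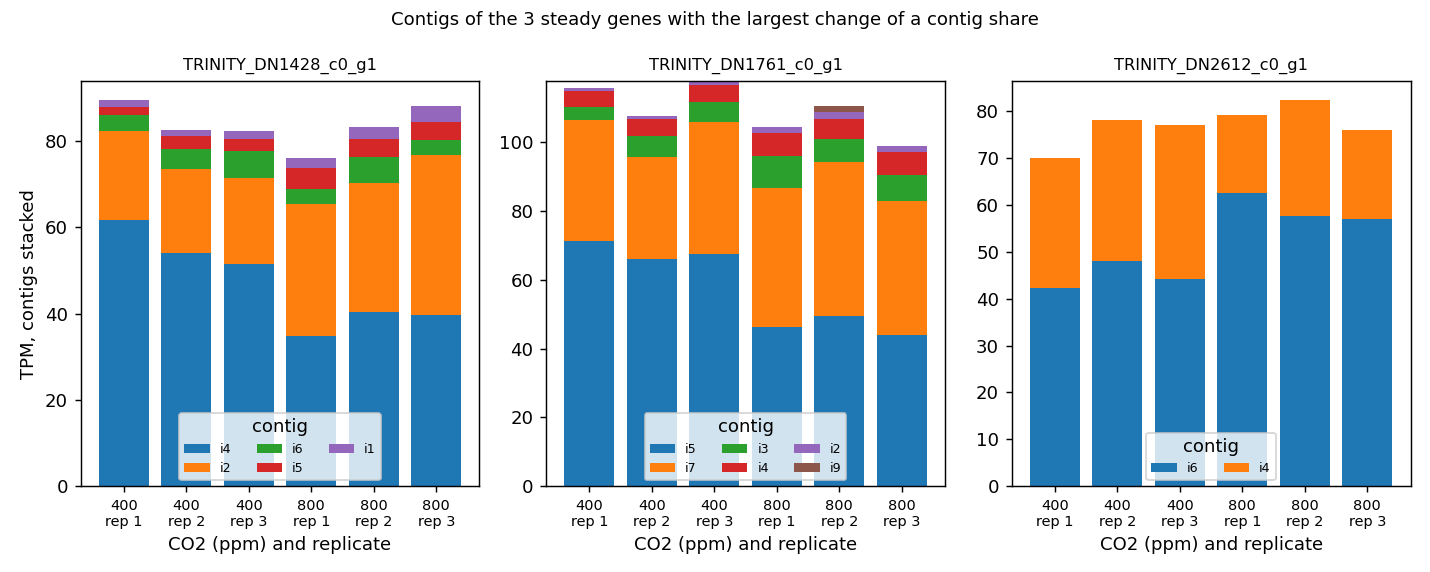
Bars show the TPM of each library for the 3 steady genes with the largest share differences, with the contigs of a gene stacked so that the bar height is the gene sum. The heights stay within a ratio of 1.2 while the segments differ between 400 and 800 ppm, as in TRINITY_DN1428_c0_g1, where contig i4 is at 51.5 to 61.8 TPM at 400 ppm and at 34.8 to 40.4 TPM at 800 ppm.

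Over all contigs of at least 1 TPM in the several-contig steady genes, the share did not overlap between the groups in 68 of 193 (35.2%), where it did not overlap in 27.4% of the contigs of genes of at least 20 TPM. The contigs of a gene share its reads, so these are not independent counts. The choice of even sums bears on the shares as well, so nothing about the steady genes is read from this comparison or from the usage counts below. A test of contig usage compares the log2 fold change of each contig with that of the rest of its gene, and does not depend on the scaling of the gene's sum. In the Simes form of edgeR's diffSpliceDGE, which asks for at least 1 contig that stands apart, 1.07% of 7008 genes were called at an FDR under 0.05. Of the 66 steady genes that could be tested, 0 were called, with 4 at an unadjusted p under 0.05 where 5.99% of all genes tested were. The lowest p among them was that of TRINITY_DN3170_c0_g1 (edgeR adjusted p = 0.251). Its contig i12 (4842 bases) had 6.95, 7.06 and 9.31 TPM at 400 ppm and 3.27, 4.20 and 3.23 TPM at 800 ppm, and its log2 usage was -1.05 at 800 against 400 ppm. The main contig i7 of that gene had 38.4, 27.3 and 36.8 TPM at 400 ppm and 43.3, 46.1 and 39.7 TPM at 800 ppm.

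The F form of the same test, which pools the evidence over the contigs of a gene, gave another count. It called 3.71% of the 7008 genes, and 6 of the 66 steady genes, with 20 at an unadjusted p under 0.05 where 15.4% of all genes tested were. The 6 genes include all 3 with the largest share differences, TRINITY_DN1428_c0_g1 (edgeR adjusted p = 0.00368), TRINITY_DN1761_c0_g1 (0.00371) and TRINITY_DN2612_c0_g1 (0.0445), together with TRINITY_DN3170_c0_g1 (0.00314), TRINITY_DN992_c0_g1 (0.0239) and TRINITY_DN2096_c0_g1 (0.0404). In the Simes form the adjusted p of TRINITY_DN1428_c0_g1 was 0.50 and that of TRINITY_DN2612_c0_g1 0.967. The F form called fewer of the steady genes in most other fits. Those counts were 5, 2 and 3 without replicates 1, 2 and 3 at 400 ppm and 5, 5 and 3 without those at 800 ppm. There were 2 without a filter on low counts and 1 with the replicate number as a block. Over all genes tested it called 201, 139 and 175 without replicates 1, 2 and 3 at 400 ppm. It called 185, 291 and 167 without those at 800 ppm, 216 without the filter and 110 with the block. Whether contig usage was called in these genes thus depended on the libraries used as well as on the form of the test, and a missed threshold does not show that usage was the same.

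In the test of single contigs, edgeR called 14.6% of 32380 contigs, 9.36% higher and 5.22% lower at 800 ppm. Of the 201 tested contigs in several-contig steady genes 37 were called, 36 higher and 1 lower. The lower one was contig i12 of TRINITY_DN3170_c0_g1 (log2 fold change -0.76, SE 0.188, edgeR adjusted p = 0.0430). That call was lost without any 1 of the 3 libraries at 400 ppm, without replicate 3 at 800 ppm, without a filter on low counts and with the replicate number as a block, where edgeR called 0 contigs of steady genes lower. The most abundant contig of TRINITY_DN1428_c0_g1, i4, had -0.18 (SE 0.131, edgeR adjusted p = 0.419) and its contig i2 had 1.06 (SE 0.134, edgeR adjusted p = 0.00642). With library size as the only scaling 11 contigs of steady genes were called, 5 higher and 6 lower. Over all 32380 contigs that fit called 6683, 1970 higher and 4713 lower.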

How the data were processed

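Leaf RNA of fennel at 400 and 800 ppm CO2 (3 libraries each) was profiled. Merged reads of all libraries were assembled by the authors with Trinity. The paper also describes a search of the contigs for long open reading frames with TransDecoder and the removal of redundant transcripts with CD-hit. The contig numbers and lengths given here may reflect these steps, which was not tested. For every contig of a library the authors deposited an estimated count (not normalized), its TPM, its FPKM and its percent of the gene. Levels were estimated with a Perl script of Trinity. For the aligner and for the program behind that script, no name is given in the sources used here.

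TPM was summed over the contigs of each gene identifier, and genes with a mean of at least 20 TPM and a highest library of at most 1.2 times the lowest were taken as steady. The members, lists and tests were chosen with earlier results of these data known. Estimated counts were rounded to whole numbers and tested per contig and per gene sum with edgeR 4.0.16 in R 4.3.3 (quasi-likelihood test, TMM, filterByExpr with min.count of 10, Benjamini-Hochberg adjustment over all features tested, FDR threshold of 0.05), and for contig usage with diffSpliceDGE. The scripts were tested on simulated data. The replicates are separate samples by their titles, and p-values measure the spread between these samples. Alternatives were DESeq2 1.42.0 and its size factors, library size only, FPKM, CPM, other thresholds, no filter on low counts, a replicate block and leaving out each library. Deviations of libraries with the same number had correlations of 0.20, 0.02 and -0.13. Correlations between unlike numbers are not given, so these values do not settle whether the numbers pair the samples. The main fits used no pairing.

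The steady genes named were the 5 most abundant, the 5 with the lowest ratio, the 3 with the most contigs, the 3 longest and the 3 shortest, those next to each threshold, the 3 with the largest share difference and the 3 with the steadiest contigs. Genes outside this rule were named after their values had been seen, because they were few in a count, stood at the end of a range or had the lowest p in a test. Intervals of counting error cover counting only. Figures were drawn with matplotlib 3.10.9.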

Additional observations from a re-analysis of the deposited data

How the results depend on the processing

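The number of steady genes followed the scale and the thresholds. In place of 133 there were 357 with TMM scaling, 376 with DESeq2 size factors, 6 with a ratio of at most 1.1, 513 with at most 1.3 and 72 with at least 50 TPM. FPKM (183), CPM (181) and no minimum level (181) stayed within 1.5 times the number. With 1 library left out there were 213 to 297, since fewer libraries leave more genes within a ratio. The median log2 difference of the steady genes (-0.01) was 0.070 with FPKM, 0.34 with TMM and 0.33 with DESeq2 size factors, and -0.03 to 0.01 with 1 library left out. The 46 steady genes called on gene sums became 0 with library size only, 20 without a filter and 0 to 13 with 1 library left out. Without replicates 1, 2 and 3 at 400 ppm the counts were 1, 2 and 0, and without those at 800 ppm 10, 13 and 1. Over all genes the 5036 calls became 6979, 4437 and 2628 to 4877. The 51 calls on contigs of steady genes became 11 with library size only, 19 without a filter and 86 with DESeq2. With 1 library left out they became 4 to 9 (8, 5 and 4 at 400 ppm, and 9, 9 and 4 at 800 ppm). Over all contigs the 4722 calls became 6683, 3720, 7219 and 1788 to 4003. Of changed contig usage, 0 calls became 6 in the F form and 0 to 2 with 1 library left out, with 2 calls without replicate 1 at 800 ppm and 0 without any other. The 6 calls of the F form became 2 to 5 with 1 library left out and 2 without a filter. Over all genes tested, the 75 calls of the Simes form became 51 to 83 with 1 library left out. The 260 calls of the F form over all genes became 139 to 291, and 216 without a filter. The 32 steady contigs became 5 with TMM scaling and 35 to 46 with 1 library left out. With the replicate number as a block, the calls were 1 on gene sums, 3 on contigs, 0 on contig usage and 1 in the F form. Over all features that fit called 3756, 2300, 31 and 110. The labels give the samples no shared trait but a number, so the fewer calls with the block are not read as a weaker effect. Of the ratios of 24 named genes, 22 moved under TMM scaling and 9 under FPKM by at least the gene's coefficient of variation over all libraries. The cause of these differences was not tested.

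With 3 libraries a group, no exact permutation test can give a p below 0.1, and counting alone would give a variation of up to 7.66% among the steady genes. A steady gene here is steady as a share of the library in these 6 libraries only. Contig levels rest on the division of shared reads.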

Other observations

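Trinity places genes that share assembly sequence in 1 component, the part of the identifier before the gene number. Of the 133 steady genes, 87 (65.4%) were alone in their component, against 62.4% of the other genes of at least 20 TPM, and the other 46 shared it with at least 1 gene. No component held more than 1 steady gene. The steady genes had 70 such neighbours, 68 of them of at least 1 TPM and 42 of at least 20 TPM. The ratios of highest to lowest library among those 42 ran from 1.21 to 8.23 with a median of 1.74, near the 1.89 of all other genes of that level. All 3 libraries at 800 ppm lay above all 3 at 400 ppm in 5 of the 42 and below them in 21, beside 17.4% and 48.1% of all genes of at least 20 TPM on the TPM scale.

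TRINITY_DN574_c0_g1, a steady gene with 383 to 449 TPM, had the most abundant neighbour. That gene, TRINITY_DN574_c0_g3, had 165, 168 and 211 TPM at 400 ppm and 533, 423 and 427 TPM at 800 ppm. Another gene of the component, TRINITY_DN574_c0_g2, had 135, 118 and 156 TPM at 400 ppm and 213, 189 and 189 TPM at 800 ppm. The groups did not overlap in either neighbour, while they did in the steady gene. The genes of a component can share reads, and how the estimation divided them between these genes was not tested.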
